A study of Mus musculus with 3 samples.

Results

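Annexins, S100 proteins and galectins, with the intermediate filament gene Vim and the LIM protein gene Crip1, were followed in CD4+ T cells sorted from the spleen and kidney of lupus-prone MRL/lpr mice. The 10 genes were Anxa1, Anxa2, S100a4, S100a6, S100a10, S100a11, Lgals1, Lgals3, Vim and Crip1. They were chosen by symbol, and all 10 were found, each as 1 row, among the 32285 gene rows of both deposited matrices. Each gene was read in all cells, in cells with at least 1 Lef1 transcript (Lef1-positive) and in cells with none (Lef1-negative). Values are unique molecular identifiers (UMIs, each standing for 1 captured transcript) summed over the cells of 1 mouse and organ.

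The study targeted Ezh2, the histone methyltransferase of Polycomb repressive complex 2, in CD4+ T cells, and its title concerns T cells that enter the kidney. The WT mice were Ezh2fl/fl without Cre, and the KO mice were CD4-Cre/ERT2 Ezh2fl/fl, in which the Cd4 promoter drives a Cre that tamoxifen activates. Both genotypes shared the MRL/lpr background (99.8% in the Cre line after 6 generations) and both were gavaged with tamoxifen at 300 mg/kg on 3 days of alternate weeks. Dosing began at 10 weeks of age in a preventative model or at 14 weeks in a therapeutic one and ended at 24 weeks, and the labels do not give the start for each mouse. The labels count 10 floxed and 9 Cre-carrying mice, and the deposited tag key names 5 WT and 4 KO mice. The cells of 3 WT mice (WT1, WT2, WT3) and 2 KO mice (KO1, KO2) could be told apart, each in both organs.

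The 10 sums held 13337 cells (8358 spleen, 4979 kidney), from 219 in kidney KO2 to 2386 in spleen WT1, and from 900068 to 10102765 UMIs. No cell barcode was shared between any 2 of them. Of 6 defining genes of CD4 T cells (Cd3e, Cd3d, Cd3g, Trac, Trbc2, Cd4) none was at 0, and they summed to between 2990 and 4651 CPM. All but Cd4 are shared with CD8 T cells. Cells with at least 2 markers of 1 other class made up 10.9% and 11.4% of kidney KO1 and KO2 and between 4.80% and 8.68% of the other sums. In the KO kidneys they were mostly cells of the CD8 and NK class (56 of 717 and 20 of 219 cells). That call rested there on Cd8a and Cd8b1, since the NK genes Ncr1, Klrb1c and Klra8 were at 0 in both. Cd8a stood at 86.2 and 83.9 CPM in the KO kidneys against 23.9 CPM or less in the WT kidneys. CPM here are UMIs per 1000000, after TMM scaling across the sums. Ezh2 stood at 51.5 and 53.8 CPM in spleen KO1 and KO2 and at 70.5, 169 and 157 CPM in spleen WT1, WT2 and WT3. In kidney it stood at 74.5 and 57.8 CPM in the KO mice and at 91.6, 161 and 134 CPM in the WT mice. Over all cells, all KO values lay below all WT values in each organ. That order was shared by 21.4% of genes tested in spleen and 20.4% in kidney. In Lef1-negative spleen cells the Ezh2 levels overlapped. They were 64.9 and 57.1 CPM in KO1 and KO2 against 58.1, 161 and 135 CPM in WT1, WT2 and WT3. In Lef1-positive spleen cells they were apart, at 45.3 and 53.0 CPM against 89.2, 191 and 202 CPM. On both sides of the gate in kidney they were also apart. WT1 was the WT mouse closest to the KO mice. WT1 also stood apart in the tests, so results that change without it are given both ways. Which exons are floxed is not given in the labels, so the level of the transcript checks the deletion in part.

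The genes code for small proteins of the membrane edge and cytoskeleton that resting naive T cells hold at low levels and that rise with activation, memory and migration into tissue. Annexins bind membrane phospholipids when calcium rises, and most S100 proteins are calcium sensors that dock onto annexins and other targets. Galectins bind sugar chains on surface glycoproteins, among them CD45 and CD43 on T cells. Lef1 encodes a transcription factor of the Wnt pathway that is abundant in naive T cells, so its transcript separates cells nearer to that state.

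The positions of the genes are those of RefSeq on GRCm38.p6. Anxa2 lies on chromosome 9 from 69453683 to 69491792 and Anxa1 on chromosome 19 from 20373434 to 20390671. The S100 genes all lie on chromosome 3, in 2 neighbouring pairs. S100a4 (90603770 to 90606045) and S100a6 (90612894 to 90614414) are 6848 bases apart, and S100a11 (93520496 to 93526288) and S100a10 (93555117 to 93564645) are 28828 bases apart. Lgals1 lies on chromosome 15 from 78926725 to 78930465, Lgals3 on chromosome 14 from 47373860 to 47386167, Vim on chromosome 2 from 13574311 to 13582826, and Crip1 on chromosome 12 from 113152012 to 113153879.

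Promoter sequence from RefSeq was at hand for 8 of the 10 genes, all but S100a10 and Lgals1. Shown are the 250 bases before the start of Anxa2 and S100a11, since both genes were lower in the spleen of KO mice in the tests below and theirs were the 2 windows of the 8 with a match to the AP-1 motif TGANTCA. Capitals mark those matches, and both genes are on the plus strand.
Anxa2: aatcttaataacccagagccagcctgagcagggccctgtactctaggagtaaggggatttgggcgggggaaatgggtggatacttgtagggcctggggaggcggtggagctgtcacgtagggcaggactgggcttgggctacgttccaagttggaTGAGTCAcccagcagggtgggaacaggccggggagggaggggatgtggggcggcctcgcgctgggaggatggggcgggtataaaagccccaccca
S100a11: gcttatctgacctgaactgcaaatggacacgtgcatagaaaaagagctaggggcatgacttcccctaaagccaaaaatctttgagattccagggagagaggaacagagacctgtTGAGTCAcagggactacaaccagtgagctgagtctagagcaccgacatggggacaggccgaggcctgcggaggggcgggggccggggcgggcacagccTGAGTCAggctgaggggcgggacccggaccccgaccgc
The first window is chr9:69453433-69453682 and the second chr3:93520246-93520495. The Anxa2 window held 1 match, ending 89 bases before the start, and the S100a11 window held 2, ending 130 and 32 bases before it. Of all 32851 RefSeq mouse promoter windows of this length, 6.75% held the motif on either strand. The GC box GGGCGG, searched on both strands, occurred 3 times in each of these windows, in 4 of the 8 genes and in 32.7% of all windows. The 2 motifs were chosen after the sequences had been seen. A match is a string of letters, not a bound site.

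The first comparison set KO against WT in all cells of the spleen. Levels of the 10 genes were mostly lower in KO mice, and Anxa2, the annexin that pairs with S100a10 at the plasma membrane, was the 1 member to pass the test. Its level was 108 CPM in KO1 and 126 CPM in KO2 against 305, 396 and 330 CPM in WT1, WT2 and WT3. Both KO mice lay far below all 3 WT mice, with means of 117 ± 12.6 CPM (SD, n = 2) and 343 ± 47.2 CPM (SD, n = 3). The log2 fold change was -1.53 ± 0.16 (SE; adjusted p = 0.0445 by edgeR's quasi-likelihood test). Of 11698 genes tested, 4 fell and 24 rose, so genes called lower made up 0.0342% of those tested.

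**Figure D1:**
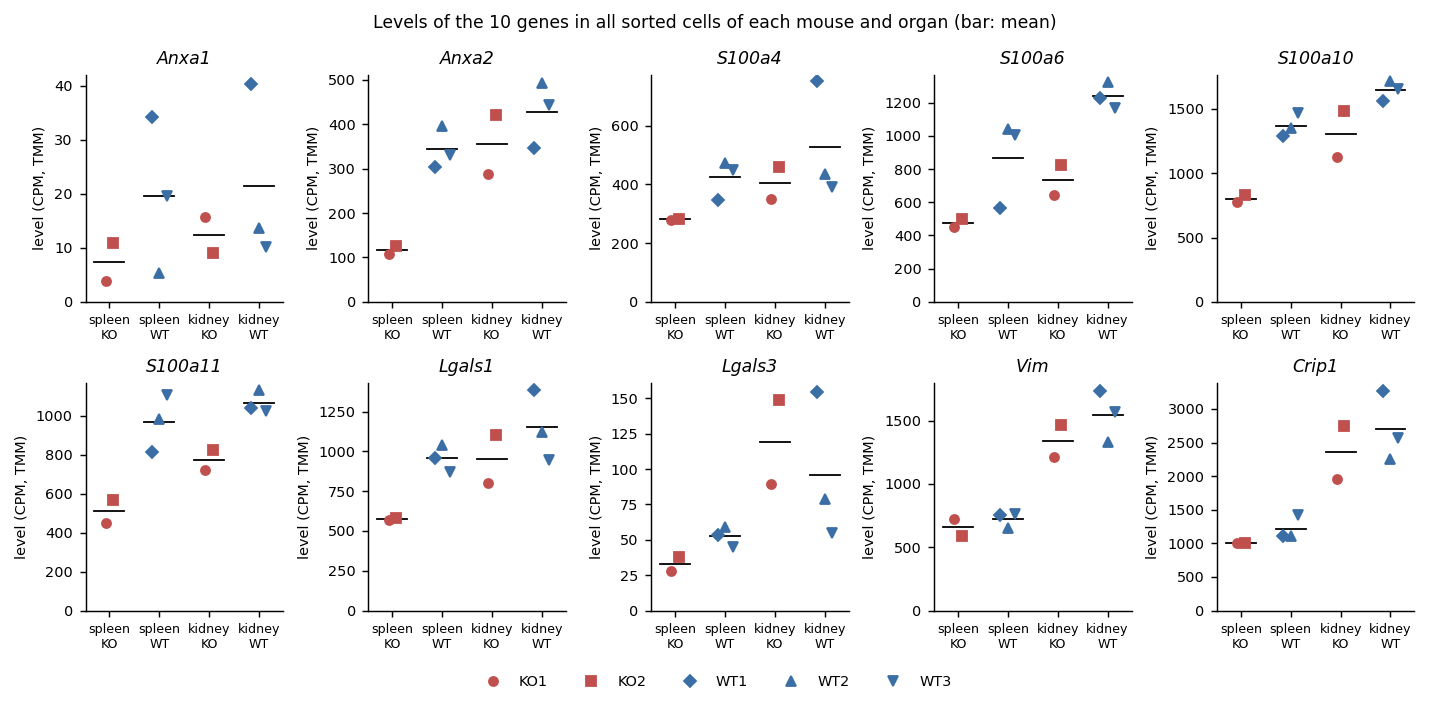
Level of each gene in CPM (TMM-scaled UMIs per 1000000, axis from 0) in all cells of each mouse, with spleen and kidney side by side; each point is 1 mouse and each bar the mean of a group. In spleen, Anxa2 stood at 108 and 126 CPM in the KO mice and between 305 and 396 CPM in the WT mice, and Vim and Crip1 were higher in kidney than in spleen in each of the 5 mice.

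The S100 genes followed the same order without passing the test. S100a10, the S100 protein that binds annexin A2, was at 776 and 831 CPM in the KO mice and at 1288, 1353 and 1467 CPM in the WT mice. S100a11, which binds annexin A1, was at 451 and 568 CPM against 811, 981 and 1107 CPM. In both genes the KO and WT mice were apart (log2 -0.74 ± 0.10, adjusted p = 0.0648 by edgeR, and -0.90 ± 0.17, adjusted p = 0.103). S100a6, a partner of calcyclin binding protein, was at 452 and 499 CPM in the KO mice and at 564, 1041 and 1003 CPM in the WT mice, with WT1 nearer to the KO mice than to the other WT mice. S100a4, which binds non-muscle myosin, ran from 279 to 283 CPM in KO and from 348 to 474 CPM in WT mice.

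Lgals1, which codes for galectin 1, was at 569.8 and 584 CPM in the KO mice and at 956, 1041 and 872 CPM in the WT mice (log2 -0.70 ± 0.12, adjusted p = 0.0889 by edgeR). Lgals3, the chimera-type galectin, was at 28.2 and 37.6 CPM against 53.4, 59.3 and 44.8 CPM (adjusted p = 0.198). Vim showed little separation, with 725 and 589 CPM in KO and 755, 656 and 763 CPM in WT mice (log2 -0.11 ± 0.13, 95% interval -0.44 to 0.22). Crip1 was at 999 and 1001 CPM against 1109, 1111 and 1429 CPM (log2 -0.25 ± 0.14, adjusted p = 0.409). Anxa1, which the glucocorticoid response induces, was scarce, at 3.92 and 10.9 CPM in KO and 34.1, 5.28 and 19.6 CPM in WT mice, and its groups overlapped.

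All 10 log2 differences were below 0, with a median of -0.72 against -0.0061 over all genes tested. In 8 of the 10, both KO mice lay below all 3 WT mice, an order that 21.4% of the genes tested shared. The exceptions were Anxa1 and Vim. The call of Anxa2 depended on single mice: without WT1 it held, with 5 further members (S100a4, S100a6, S100a10, S100a11, Lgals1) and 2254 genes in all. Leaving out any 1 of KO1, KO2, WT2 or WT3 ended all calls. DESeq2 on the same sums called 6 members and 697 genes. In sums over all cells, fewer cells of a type and less RNA per cell cannot be told apart.

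The share of Lef1-positive cells moved with genotype. It was 64.7% and 59.6% in spleen KO1 and KO2 (95% Wilson intervals 62.1 to 67.3 and 57.2 to 62.0) and 30.8%, 23.8% and 24.9% in WT1, WT2 and WT3. In kidney it was 42.1% and 50.2% in the KO mice and 21.7%, 23.0% and 19.2% in the WT mice. With each cell thinned to 1500 UMIs (525 shallower cells left out) the shares were 47.7% and 42.8% against 16.3%, 11.6% and 11.8% in spleen, and 25.1% and 33.6% against 9.92%, 11.5% and 10.3% in kidney, in the same order. Among 40 cells that carried markers of a non-T class and no T cell marker, 1 (2.5%) had a Lef1 UMI, at a median of 5302 UMIs per cell, against 34.4% of the other cells at a median of 3394. A cell without a Lef1 UMI may still express the gene, and Lef1-positive cells were deeper in each sum (median 4220 against 3042 UMIs in spleen WT1, for example).

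Within the Lef1-positive cells of the spleen more of the 10 genes passed the test than in all cells. The 4 members Anxa2, S100a10, S100a11 and Lgals1 fell, and none rose. Anxa2 was at 71.3 and 108 CPM in KO1 and KO2 and at 349, 501 and 409 CPM in WT1, WT2 and WT3. The highest KO value was below the lowest WT value by a wide margin (89.8 ± 26.2 CPM, SD, n = 2, against 419.8 ± 76.5 CPM, SD, n = 3). The log2 fold change was -2.24 ± 0.25 (SE; adjusted p = 0.0106 by edgeR). Genes called lower made up 1.98% of the 10820 tested (214 genes, with 286 called higher).

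S100a10 was at 662 and 731 CPM in these cells of the KO mice and at 1362, 1612 and 1670.3 CPM in those of the WT mice. The groups did not overlap, and the log2 fold change was -1.17 ± 0.13 (adjusted p = 0.0124 by edgeR). S100a11 was at 333 and 420.1 CPM against 603, 851 and 957 CPM, also without overlap (log2 -1.11 ± 0.22, adjusted p = 0.0397 by edgeR). Lgals1 was at 487 and 525 CPM against 1030.2, 1355 and 1164 CPM, where both KO values were below every WT value (log2 -1.24 ± 0.15, adjusted p = 0.0149 by edgeR).

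The other 6 members were also lower on average and did not pass. S100a6 was at 286 and 354 CPM in the KO mice and at 337, 1074 and 889 CPM in the WT mice, so that WT1 lay among the KO values (log2 -1.27 ± 0.45, adjusted p = 0.169 by edgeR). Lgals3 showed the same order, with WT1 at 31.4 CPM between 21.9 CPM in KO1 and 32.0 CPM in KO2. S100a4 was at 207 and 208 CPM in KO and 223, 521 and 396 CPM in WT mice, with WT1 again nearest. Vim was at 708 and 625 CPM against 788, 923 and 987 CPM, and Crip1 at 1048 and 1121 CPM against 1140, 1285 and 1712 CPM. In both, the groups were apart by less than the spread among the WT mice.

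The median log2 difference of the 10 members was -1.14, against -0.016 over all genes tested. In 8 of the 10 both KO mice lay below all WT mice, as they did in 18.9% of genes tested. Without WT1 all 10 members and 1987 genes were called. Without WT2 the calls were Anxa2 and Lgals1 (61 genes in all), and without WT3 they were Anxa2, S100a10 and Lgals1 (183 genes). Without either KO mouse no gene was called, with 1 KO mouse assumed to vary like the WT mice. Over these omissions the log2 fold change of Anxa2 stayed between -2.56 and -1.96.

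The Lef1-positive cells of the 2 genotypes were not alike in Lef1 itself or in other markers of naive T cells. Lef1, which chose these cells and is no result, stood at 948 and 858 CPM in those of spleen KO1 and KO2. In WT1, WT2 and WT3 it stood at 325, 306 and 317 CPM, so the gate held unlike cells in the 2 genotypes. Igfbp4, a growth factor binding protein, was at 2141 and 1277 CPM in these spleen cells of the KO mice and at 96.5, 84.0 and 48.6 CPM in the WT mice. Ccr7, the lymph node homing receptor, was at 684 and 827 CPM against 188, 122 and 116 CPM. Both rose in KO (log2 4.47 ± 0.34, adjusted p = 0.00422, and 2.39 ± 0.23, adjusted p = 0.00689, by edgeR). A summed level of 8 naive T cell genes, over all cells, ran from 4605 to 5677 CPM in spleen KO and from 1325 to 2341 CPM in spleen WT sums. That sum counts Lef1 itself and takes in the unlike shares of Lef1-positive cells, so it does not compare the gated cells. The part of naive T cell markers in the lower levels of the annexin and S100 genes was not tested.

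In the Lef1-negative cells of the spleen none of the 10 genes passed, and none of the 10605 genes tested did (0%). Before adjustment 924 genes had a p under 0.05. DESeq2 called 81 genes, among them Anxa2. Anxa2 was at 178 and 159 CPM in the KO mice and at 277, 353 and 292 CPM in the WT mice, without overlap (log2 -0.81 ± 0.16, adjusted p = 0.555 by edgeR). Without WT1, edgeR called it among 1139 genes. S100a10 was at 1014 and 1024 CPM against 1254, 1252 and 1375 CPM, and S100a11 at 680 and 828 CPM against 974, 1050.1 and 1192 CPM. Lgals1 overlapped, with 743 and 699 CPM in KO and 916, 912 and 731 CPM in WT mice. The median over the 10 members was -0.28, and 5 of the 10 had both KO mice below all WT mice (19.1% of genes tested did).

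**Figure D2:**
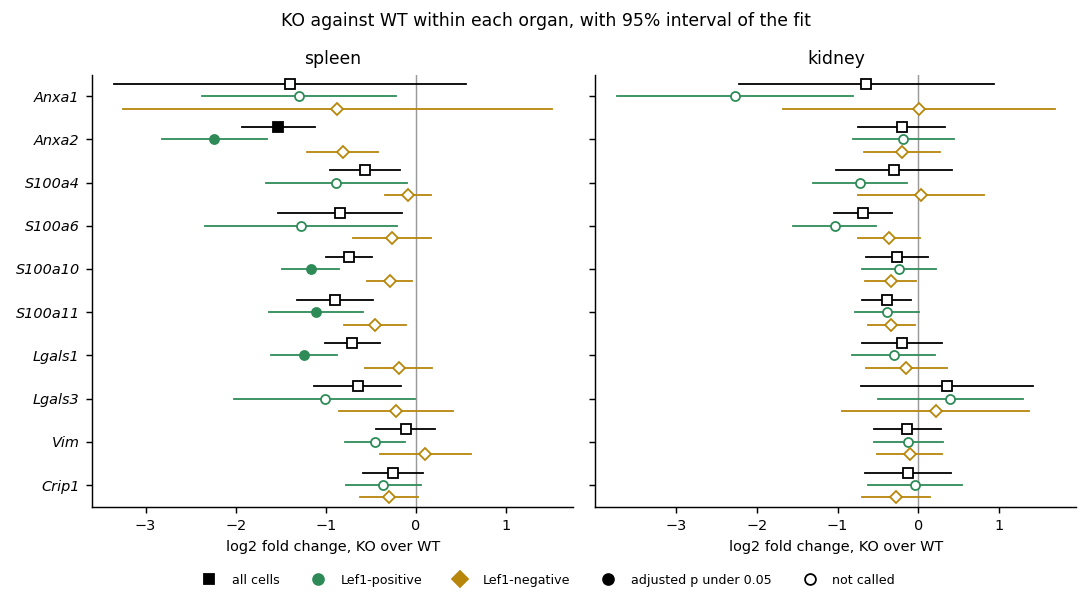
Log2 fold change of KO over WT for each gene in spleen and in kidney, with the 95% interval of the edgeR fit; squares are all cells, circles Lef1-positive and diamonds Lef1-negative cells, and filled symbols passed an adjusted p of 0.05. In spleen Anxa2 lay at -2.24 in Lef1-positive and at -0.81 in Lef1-negative cells, and no kidney symbol is filled.

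Whether the genotype difference was larger in Lef1-positive than in Lef1-negative cells of the same spleens was tested as an interaction, with each mouse as its own block. It was larger for the same 4 members. The difference of the 2 log2 fold changes was -1.42 ± 0.18 for Anxa2 (adjusted p = 0.000985 by edgeR) and -1.04 ± 0.15 for Lgals1 (adjusted p = 0.00159). It was -0.87 ± 0.10 for S100a10 (adjusted p = 0.000756) and -0.63 ± 0.13 for S100a11 (adjusted p = 0.013). Genes with a difference called below 0 made up 3.25% of 11220 tested (365, with 274 above 0).

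Behind these values, unthinned levels in the WT mice were higher in Lef1-positive than in Lef1-negative cells for Anxa2, S100a10 and Lgals1 in all 3 animals, while in both KO mice they were lower. For Lgals1 the step was from 916 to 1030.2, from 912 to 1355 and from 731 to 1164 CPM in WT1, WT2 and WT3, and from 743 to 487 and from 699 to 525 CPM in KO1 and KO2. Lef1-positive cells were deeper. The share of cells with a UMI, another measure than CPM, was therefore read in cells thinned to 1500 UMIs before the gate. By that share the rise of Lgals1 in the WT mice was not seen. Of thinned Lef1-positive and Lef1-negative cells, 49.5% and 53.8% (WT1), 37.5% and 47.5% (WT2) and 45.9% and 45.9% (WT3) had an Lgals1 UMI. For S100a10 the share was lower in Lef1-positive cells of WT1 and WT2 and higher in those of WT3 (83.2% against 76.8%). For Anxa2 it stayed slightly higher in Lef1-positive cells of WT1, WT2 and WT3 (30.9% against 29.3%, 33.7% against 33.2% and 30.7% against 30.1%). In the KO mice the thinned Lgals1 shares were 18.8% against 42.3% and 23.4% against 41.9%, still lower in Lef1-positive cells. S100a11 was lower in the Lef1-positive cells of all 5 mice. The remaining 6 members also had differences below 0, from -0.87 ± 0.26 in S100a6 (adjusted p = 0.0728) to -0.040 ± 0.13 in Crip1 (95% interval -0.31 to 0.23). Anxa2 and S100a10 passed with each mouse left out in turn. Lgals1 missed without KO1 (adjusted p = 0.0504), and S100a11 missed without KO1, KO2 or WT3 (adjusted p = 0.155, 0.118 and 0.0892). Without WT1 there were 8 members. Where the cells were thinned to 1500 UMIs before the Lef1 gate, all 4 passed and S100a4 and S100a6 joined them.

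**Figure D3:**
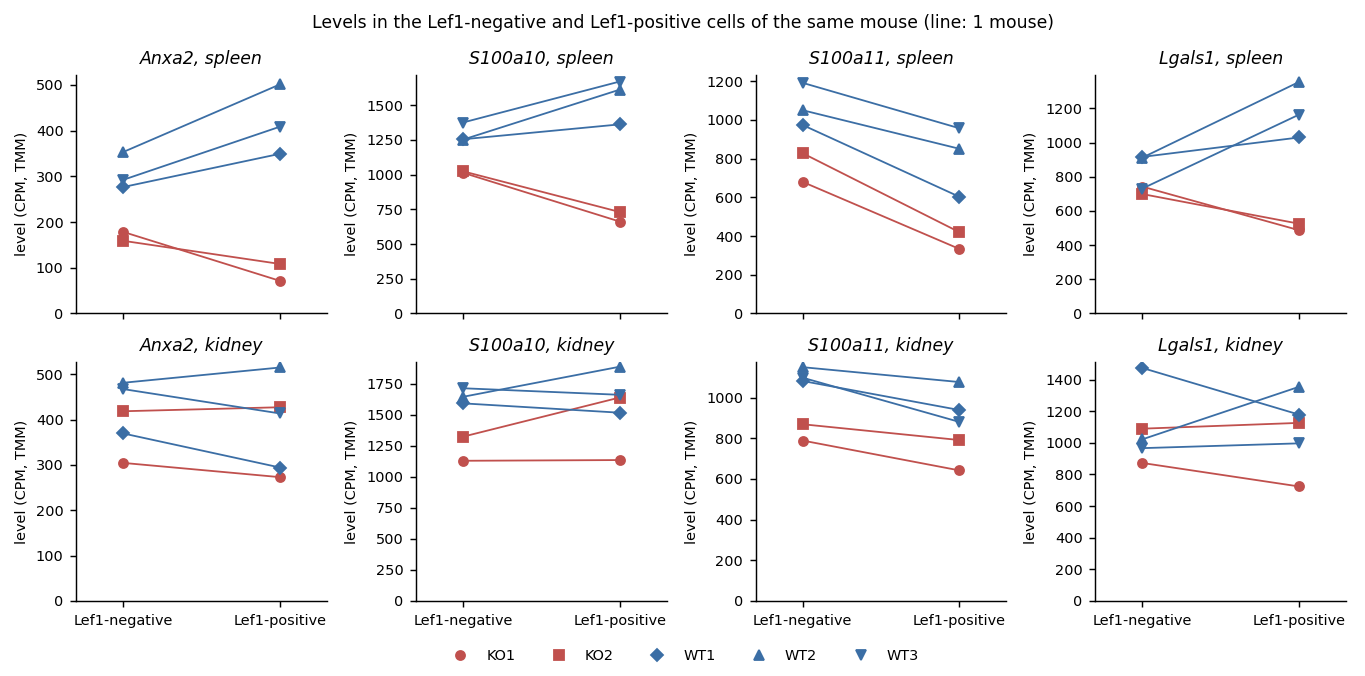
Level in CPM (axis from 0) of Anxa2, S100a10, S100a11 and Lgals1 in the Lef1-negative and Lef1-positive cells, spleen above and kidney below; each line joins the 2 sums of 1 mouse. In spleen the unthinned Lgals1 lines rise in the 3 WT mice and fall in the 2 KO mice. By the share of cells with an Lgals1 UMI at 1500 UMIs per cell, that rise was not seen.

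In the kidney, KO against WT gave no called gene among 10486 (0%) and so none of the 10. Before adjustment 966 genes had a p under 0.05. DESeq2 called 58 genes, with S100a6 as the 1 member. S100a6 was at 644 and 826 CPM in KO1 and KO2 and at 1228, 1326 and 1166 CPM in WT1, WT2 and WT3. The groups were apart (735 ± 129 CPM, SD, n = 2, against 1240.2 ± 80.7 CPM, SD, n = 3), with a log2 fold change of -0.68 ± 0.15 and an adjusted p of 0.441 by edgeR. Without WT1, edgeR called S100a6 among 739 genes. Anxa2, the member with the clearest difference in spleen, overlapped in kidney, at 289 and 422 CPM in KO and 347, 493 and 444 CPM in WT mice (log2 -0.20 ± 0.22, 95% interval -0.74 to 0.33).

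S100a10 (1125 and 1487 against 1561, 1721 and 1658 CPM) and S100a11 (720 and 824 against 1038, 1132 and 1024 CPM) were lower in both KO kidneys than in all WT kidneys. With S100a6 these made 3 of 10 members with that order, against 20.4% of genes tested. Lgals1 overlapped (803 and 1105 against 1387, 1125 and 949 CPM), and so did Lgals3, at 89.1 and 148 CPM in KO and 154, 78.9 and 54.6 CPM in WT mice, the 1 member with a fold change above 0 (log2 0.35 ± 0.44). Vim and Crip1 overlapped as well, with log2 fold changes of -0.14 ± 0.17 and -0.12 ± 0.22. The median of the members was -0.23 against -0.0053 over all genes tested. Summed markers of the CD8 and NK class (1 of 5 at 0 in all sums) were at 185 and 167 CPM in the KO kidneys. In the WT kidneys they were between 24.9 and 45.7 CPM. The KO values came from Cd8a and Cd8b1 alone, with the NK genes Ncr1, Klrb1c and Klra8 at 0 there. Kidney tubule transcripts reached 1404 CPM in kidney WT3 against 4.53 CPM or less in the KO kidneys. Without the cells carrying at least 2 markers of 1 such class, S100a6 was at 545 and 671 CPM against 1176, 1266 and 1200 CPM, with the groups still apart.

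Within the Lef1-positive kidney cells 1 gene of 8668 was called (0.0115%), within the Lef1-negative cells 1 of 10148 (0.00985%), and neither was a member. Without WT1 edgeR called 553 genes with S100a6 in Lef1-positive cells and 394 genes with Lgals3 in Lef1-negative cells. DESeq2 called 33 genes, S100a6 among them, in Lef1-positive cells and 10 genes and no member in Lef1-negative cells. In Lef1-positive cells S100a6 was at 456 and 608 CPM in KO and 1065, 1389 and 913 CPM in WT mice, without overlap (log2 -1.04 ± 0.23, adjusted p = 0.244 by edgeR). S100a4 was at 234 and 339 CPM against 587, 511 and 350 CPM. Anxa2 overlapped, at 273 and 427 CPM against 294, 515 and 414 CPM. In these cells 4 of 10 members had both KO values below all WT values (15.7% of genes tested), and in Lef1-negative cells 4 of 10 did (21.8%). The smallest of the kidney sums held 109 cells and 400845 UMIs (Lef1-negative cells of KO2).

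The test of a larger genotype difference in Lef1-positive kidney cells called 7 of 9560 genes (0.0732%) and none of the 10 members. S100a6 and S100a4 were closest, at -0.67 ± 0.15 (adjusted p = 0.109 by edgeR) and -0.83 ± 0.20 (adjusted p = 0.189). For Anxa2 the difference was -0.010 ± 0.15, with a 95% interval from -0.33 to 0.31, which does not hold the -1.42 measured in spleen. The difference between the organs in this respect was not tested. DESeq2 called S100a4 and S100a6 there among 17 genes.

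The genotype difference was also compared between the organs. No gene of 12072 passed this interaction test (0%), with 487 at a p under 0.05 before adjustment. DESeq2 called 6 genes, none of them a member. Anxa2 had the largest difference among the members, 1.31 ± 0.30 on the log2 scale (95% interval 0.62 to 1.99), less negative in kidney, at an unadjusted p of 0.00183 that ranked 11 among all genes and an adjusted p of 1.00. For Vim it was -0.041 ± 0.22 (95% interval -0.53 to 0.44). With the mouse as a block 4 genes passed, none of them a member.

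Kidney cells carried more transcript than spleen cells for 7 of the 10 genes when the 5 mice were compared with genotype as a covariate. Vim, the intermediate filament of leukocytes and fibroblasts, was at 1210, 1467, 1738, 1331 and 1566 CPM in the kidneys of KO1, KO2, WT1, WT2 and WT3. In the spleens of the same mice it was at 725, 589, 755, 656 and 763 CPM. The lowest kidney was above the highest spleen (log2 1.09 ± 0.10, adjusted p = 8.63e-05 by edgeR). Genes called higher in kidney made up 12.1% of 12072 tested (1460, with 1164 lower).

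Crip1, which codes for a short LIM-domain protein, was at 1965, 2753, 3269, 2257 and 2571 CPM in kidney and at 999, 1001, 1109, 1111 and 1429 CPM in spleen, in the same order of mice. Again the organs did not overlap (log2 1.21 ± 0.13, adjusted p = 0.000197 by edgeR). Lgals3 was at 89.1, 148, 154, 78.9 and 54.6 CPM in kidney and at 28.2, 37.6, 53.4, 59.3 and 44.8 CPM in spleen. The organs overlapped across mice, and each mouse was higher in kidney (log2 1.25 ± 0.30, adjusted p = 0.015 by edgeR).

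Anxa2 (log2 0.84 ± 0.25), S100a6 (0.58 ± 0.16), S100a10 (0.47 ± 0.11) and Lgals1 (0.47 ± 0.14) rose too, with adjusted p between 0.0152 and 0.0363 by edgeR. S100a11 (0.35 ± 0.12, adjusted p = 0.0687), S100a4 (0.42 ± 0.18) and Anxa1 (0.35 ± 0.52) did not pass. The 7 called members were the ones higher in the kidney of all 5 mice, an order that 16.7% of genes tested shared. The step in Anxa2 was 289 against 108 CPM in KO1 and 422 against 126 CPM in KO2, and smaller in the WT mice, 347 against 305, 493 against 396 and 444 against 330 CPM. The count depended on the mice: without KO1 the calls were Vim and Crip1, and without KO2 they were S100a10, Vim and Crip1. Without WT1, WT2 or WT3 there were 6, 7 and 5 calls. Anxa2 was among them without WT1 or WT2 and not without WT3. With the mouse as a block in place of genotype, S100a11 joined for 8 members, and 3715 genes were called in place of 2624.

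**Figure D4:**
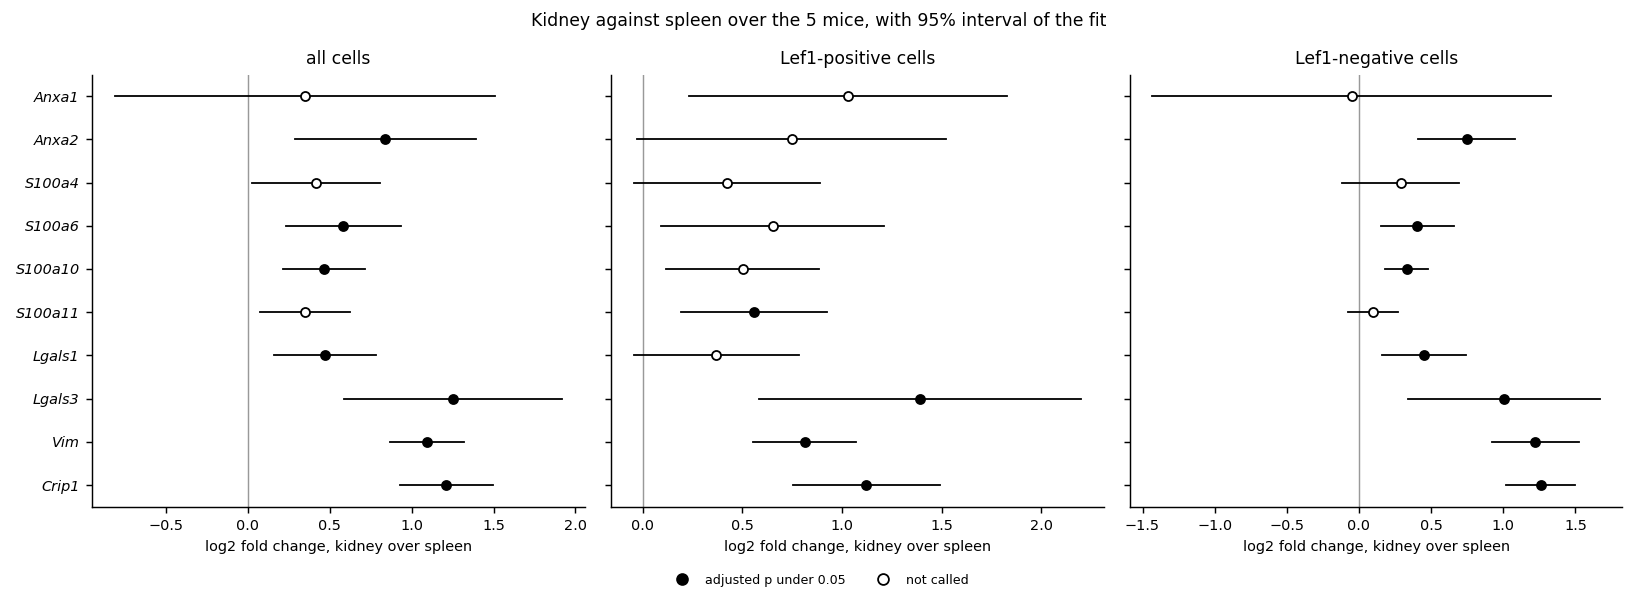
Log2 fold change of kidney over spleen for each gene in all, Lef1-positive and Lef1-negative cells, with the 95% interval of the edgeR fit over 5 mice; filled symbols passed an adjusted p of 0.05. Vim, Crip1 and Lgals3 are filled in all 3 panels, with Vim at 1.09, 0.81 and 1.22.

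The kidney difference was present on both sides of the Lef1 gate. In Lef1-positive cells S100a11 (log2 0.56 ± 0.17), Lgals3 (1.39 ± 0.37), Vim (0.81 ± 0.12) and Crip1 (1.12 ± 0.17) rose by edgeR (adjusted p = 0.0409, 0.0251, 0.000961 and 0.00113), and 10.7% of 9980 genes tested did. In each of the 5 mice S100a6, Vim and Crip1 were higher in kidney (15.1% of genes were). With the mouse as a block S100a6 and S100a10 joined for 6 members (2232 genes in place of 1686). Thinned to 1500 UMIs, Vim and Crip1 passed there. In Lef1-negative cells the 7 members called in all cells were called again (10.7% of 10988 genes were), led by Crip1 (1.26 ± 0.11) and Vim (1.22 ± 0.14), and these 7 were higher in the kidney of each mouse (15.7% of genes). S100a11 differed little there (0.097 ± 0.080, 95% interval -0.079 to 0.27).

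Kidneys were dissociated with enzymes under heating and spleens by mashing, per the labels, so organ and preparation cannot be told apart in this comparison. Summed myeloid markers were at 186 to 257 CPM in kidney and 121 to 230 CPM in spleen, and 5 of the 10 rose in kidney (Csf1r, C1qa, C1qb, C1qc and Cd14; median log2 of the list 1.78). Both tested CD8 markers rose (Cd8a 2.16 ± 0.36 and Cd8b1 1.40 ± 0.24), as did 2 of 5 tested kidney tubule genes. Among all genes tested, 12.1% rose in kidney. Without cells carrying at least 2 markers of 1 other class, edgeR called the same 7 members (2590 genes). Vim was then at 1137 to 1703 CPM in kidney and 561 to 711 CPM in spleen, and Crip1 at 2116 to 3396 CPM and 922 to 1376 CPM, so both gaps stayed.

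Averaged over both genotypes, Lef1-positive and Lef1-negative cells of the same mice differed in few of the 10 genes. This fit gave KO and WT mice 1 common step. In unthinned spleen sums the steps of Anxa2, S100a10 and Lgals1 ran in opposite directions in KO and WT mice. For these genes a small average does not mean alike cells. In spleen Anxa1 (log2 -2.07 ± 0.42, adjusted p = 0.0208 by edgeR) and S100a11 (-0.66 ± 0.13, adjusted p = 0.0188) fell in Lef1-positive cells, as 3.81% of 11220 genes did. S100a11 was lower in all 5 mice, and so were 11.4% of genes tested. Anxa1 was lower in 4 of 5, since WT2 had 7.50 CPM in Lef1-positive and 4.35 CPM in Lef1-negative cells. Part of the Anxa1 signal came with cells of other classes: without them the level over all cells was 15.1 CPM in place of 34.1 CPM in spleen WT1, and Anxa1 was no longer called (adjusted p = 0.0702 by edgeR). S100a11 was also lower in the Lef1-positive cells of all 5 kidneys (7.97% of genes were). In kidney no member was called, while 188 of 9560 genes were (1.97%), and S100a6 came closest (-0.41 ± 0.11, adjusted p = 0.0864).

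This average over both genotypes also moved with depth. Thinned to 1500 UMIs per cell before the gate, 5 members fell in each organ, S100a4, S100a6, S100a11 and Lgals1 in both, Lgals3 in spleen and Vim in kidney. Lgals1 changed sign, from 0.083 to -0.67 in spleen (adjusted p = 0.0294) and from 0.0047 to -0.55 in kidney (adjusted p = 0.000221), so no direction is given for it here. Without WT1 or KO2 no member was called in spleen by edgeR.

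Counted per cell at this even depth, fewer of the 10 genes were seen in a spleen cell of KO mice. A spleen cell held UMIs of 2.63 and 3.02 of the 10 genes on average in KO1 and KO2 and of 4.09, 4.13 and 4.30 in WT1, WT2 and WT3. In kidney the averages were 3.89 and 4.25 against 5.05, 4.84 and 5.12. KO mice were below WT mice in each organ, and every kidney was above the spleen of the same mouse. Lef1-positive spleen cells held 1.90 and 2.24 in KO and 3.64, 3.74 and 4.16 in WT mice, and Lef1-negative spleen cells 3.29 and 3.61 against 4.18, 4.18 and 4.32. At least 5 of the 10 genes were seen in 6.11% and 11.8% of Lef1-positive spleen cells of the KO mice and in 32.3%, 33.7% and 41.8% of those of the WT mice. These are counts of UMIs at a fixed depth, not of cells that express a gene.

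**Figure D5:**
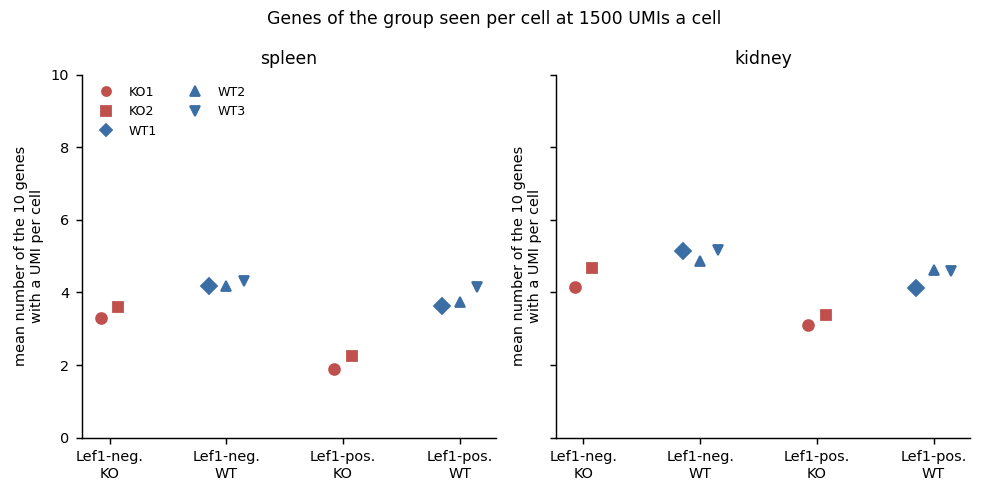
Mean number of the 10 genes with at least 1 UMI in a cell thinned to 1500 UMIs, for Lef1-negative and Lef1-positive cells of spleen and kidney; each point is 1 mouse and the axis runs from 0 to 10. The lowest values, 1.90 and 2.24, are those of Lef1-positive spleen cells of KO1 and KO2.

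Other genes of the same families were read from lists of relatives and partners. Of 10 other annexins, 5 were tested and none was called in KO against WT in either organ or on either side of the gate; Anxa5 had a larger genotype difference in Lef1-positive than in Lef1-negative spleen cells (-0.71 ± 0.16, adjusted p = 0.0206 by edgeR). Anxa11 rose in kidney against spleen (0.35 ± 0.078, adjusted p = 0.0111). Of 13 other S100 genes (S100pbp included), 4 were tested in spleen, and none was called in KO against WT. S100a8 and S100a9, the calprotectin subunits of neutrophils, fell in Lef1-positive spleen cells, but 1633 of the 1635 S100a8 UMIs in spleen WT1 were in 1 cell. Of 8 further galectin genes (Lgals3bp included), 4 were tested in Lef1-positive spleen cells. Lgals9 rose there in KO mice (0.94 ± 0.18, adjusted p = 0.0345 by edgeR), with 135 and 138 CPM against 81.4, 54.0 and 73.9 CPM, while Lgals1 fell there.

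Among 14 partners and receptors, Plaur, the urokinase receptor gene, rose in the KO spleen (log2 3.25 ± 0.29, adjusted p = 0.0254 by edgeR), from 2.24, 3.22 and 2.02 CPM in the WT mice to 26.3 and 19.3 CPM in KO1 and KO2. In Lef1-positive cells it rose as well (4.15 ± 0.54, adjusted p = 0.0155). Ahnak, the large scaffold protein that annexin A2 and S100A10 bind, and Cd44, the hyaluronan receptor, did not pass in KO against WT, and their genotype difference was larger in Lef1-positive spleen cells (both -0.97, SE 0.14 and 0.16, adjusted p = 0.00174 and 0.00347). Cd7, a galectin 1 receptor, had the opposite sign there (2.33 ± 0.15, adjusted p = 1.67e-05), as 1 of 12 tested partners against 3 below 0 with Mgat5. Among all genes tested for that difference, 3.25% were called below 0. Against spleen, Ahnak, Cd44 and Plaur rose in kidney (0.82 ± 0.16, 0.78 ± 0.17 and 0.96 ± 0.30), as 12.1% of genes tested did.

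Of 13 intermediate filament and LIM protein genes, 10 were tested. In kidney against spleen 4 rose, Lmna (2.31 ± 0.27), Crip2 (2.24 ± 0.14), Lmnb1 (1.17 ± 0.23) and Syne2 (0.51 ± 0.11), and Lims1 fell (-0.51 ± 0.11), with adjusted p of 0.0107 or less by edgeR. Lmna, which codes for lamin A and C of the nuclear envelope, was at 169, 259.6, 141, 148 and 337 CPM in kidney and at 50.9, 40.2, 40.0, 33.8 and 52.1 CPM in spleen. Of 12 actin binding genes, all tested, Tagln2, Tpm4, Cotl1 and Iqgap1 rose in kidney and Coro1a fell. Among all 12072 genes tested between the organs, 12.1% rose in kidney. In KO against WT, Lef1-positive spleen cells had Lmnb1 (-1.11 ± 0.23) and Iqgap1 (-0.89 ± 0.15) lower, as 1.98% of genes tested were. Csrp1 (0.67 ± 0.14) and Lmo4 (1.38 ± 0.28) were higher there.

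Across the 10 sums, the mean of the 10 genes on a centred log2 scale was lowest in spleen KO1 (-0.92) and spleen KO2 (-0.68) and highest in kidney WT1 (0.75), with the spleen WT mice between -0.11 and 0.057. Each member's Pearson correlation with the mean of the other 9 ran from 0.44 in Anxa1 to 0.93 in Lgals1. Of 3138 other genes with a mean of at least 50 CPM, those most like this mean were Slc1a5 (r = 0.97), Gnb1 (0.96), Perp (0.95), Suco (0.95) and Arf1 (0.94), over 10 sums of 5 mice that share genotype, organ and mouse. Most opposed were Hmgn1 (-0.95), Snrpd3 (-0.89), Tbc1d1 (-0.88), Tnik (-0.87) and Limd2 (-0.84).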

How the data were processed

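CD4+ T cells tagged with TotalSeq-C antibodies per mouse and organ were pooled and read by 5′ single-cell sequencing. The authors deposited whole UMI counts per gene and tag, 1 matrix per organ, with no normalization (Cell Ranger 7.1.0, Seurat 5.0.1 and mm10, per the submitters' processing notes). Other deposited columns, such as the tag sequence key, are not measurements and were used as labels (unit other). Mapping settings are not given in these sources. Tag numbers were joined to the deposited key by its order. Barcode blocks of the first day were used, each led by 1 tag in at least 99.5% of cells, and cells led by another tag were dropped. The 8 blocks of the second day repeat 2399 barcodes under several mice and were not used in comparisons.

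Of 13368 cells, 13337 with at least 200 genes and under 10% mitochondrial UMIs were kept, and no doublet caller was run. Counts were summed per mouse and organ and tested with the quasi-likelihood test of edgeR 4.0.16 in R 4.3.3. Libraries were scaled by TMM, low genes dropped by filterByExpr, and p-values adjusted over all genes tested (Benjamini-Hochberg, threshold 0.05). Printed levels use TMM over 10 sums (all cells) or 20 sums (gated cells), and tests the TMM of their own fit. DESeq2 1.42.0 was an alternative. Spleen and kidney values of a number come from the same mouse by the tag key. Deviations from group means correlated between the organs at 0.63, 0.66 and 0.39 in WT1, WT2 and WT3 (7977 genes). In the KO mice the value was 0.068, the same for both, since deviations in a group of 2 mirror each other. It does not bear out the pairing of the KO mice. The mouse entered as a block where stated.

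The 10 genes and all lists were chosen with earlier results of these data known. All members are named; of the lists, genes called in a comparison, otherwise up to 3 of the smallest p; and the 5 genes most like in pattern. The 5 most opposed were named after their values were seen. Total counts limit precision, and intervals of shares (95%, Wilson) cover counting error only.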

Additional observations from a re-analysis of the deposited data

Results flagged for a closer look

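The genotype difference in spleen was not the same in Lef1-positive and Lef1-negative cells for 4 of the 10 genes, by the test of the difference itself. It was more negative in Lef1-positive cells by -1.42 in Anxa2, -1.04 in Lgals1, -0.87 in S100a10 and -0.63 in S100a11 (log2, edgeR). In unthinned sums the KO and WT mice moved in opposite directions between the 2 kinds of cell for Anxa2, Lgals1 and S100a10. At 1500 UMIs per cell the share of cells with an Lgals1 UMI did not show that rise in the WT mice. The S100a10 share was lower in Lef1-positive cells of WT1 and WT2 and higher in those of WT3. The Anxa2 share was only slightly higher in those of WT1, WT2 and WT3. With the cells thinned, all 4 differences passed. For S100a11 all 5 mice moved the same way. Groups of 2 and 3 mice are too small for a test of outlying samples.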

How the results depend on the processing

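Counts are given as genes called, then members called of 10, where a count moved by over 1.5 times. With DESeq2 in place of edgeR, KO against WT called 697 and 6 in all spleen cells, 58 and 1 in all kidney cells, 780 genes in Lef1-positive and 81 and 1 in Lef1-negative spleen cells, 33 and 1 in Lef1-positive and 10 genes in Lef1-negative kidney cells. It called 6 genes for the organ difference, 483 and 4 for Lef1-positive against Lef1-negative cells in spleen and 1 member in kidney, and 315 genes (spleen) and 17 and 2 (kidney) for the difference between them. With no filter on low counts, KO against WT called 340 and 4, 26 genes, 1569 and 8, 1 gene, 353 and 3, and 12 genes in the order all spleen, all kidney, Lef1-positive and Lef1-negative spleen, Lef1-positive and Lef1-negative kidney. That setting called 9 members in kidney against spleen Lef1-positive cells, 1834 and 5 (spleen) and 533 and 2 (kidney) between the gates, and 1060 and 7 (spleen) and 109 and 3 (kidney) for the difference.

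Without cells of other classes the calls were 118 and 2 in all spleen cells, 5 and 0 genes in Lef1-positive and Lef1-negative kidney cells, 522 genes (spleen) and 1 member (kidney) between the gates, and 20 genes for the kidney difference. At 2 or more Lef1 UMIs they were 905 (spleen) and 2 (kidney) in Lef1-positive cells, 822 between organs and 13 for the kidney difference. Thinned to 1500 UMIs they were 0 and 2 genes in Lef1-positive and Lef1-negative kidney cells, 494 and 2 between organs in Lef1-positive cells, 357 and 5 (spleen) and 121 and 5 (kidney) between the gates, and 263 for the spleen difference. Outside the comparison of the gates themselves, leaving out cells of other classes in gated sums and the thinning were chosen after seeing the data. With the mouse as replicate block 4 genes passed the organ difference, and with no replicate block Lef1-positive against Lef1-negative cells gave 23 genes and 0 members (spleen) and 4 genes (kidney).

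Leaving out 1 mouse gave these ranges for KO against WT: 0 to 2254 genes and 0 to 6 members (all spleen cells), 0 to 739 and 0 to 1 (all kidney), 0 to 1987 and 0 to 10 (Lef1-positive spleen), 0 to 1139 and 0 to 1 (Lef1-negative spleen), 0 to 553 and 0 to 1 (Lef1-positive kidney), 0 to 394 and 0 to 1 (Lef1-negative kidney). In kidney against spleen they were 1350 to 2696 and 2 to 7 (all), 786 to 1623 and 2 to 6 (Lef1-positive), 1042 to 1785 and 3 to 7 (Lef1-negative), with Vim and Crip1 called in each. Between the gates they were 379 to 597 and 0 to 4 (spleen) and 95 to 234 and 0 to 2 (kidney), for their difference 132 to 844 and 2 to 8 (spleen) and 3 to 29 and 0 to 1 (kidney), and for the organ difference 0 to 1 and 0 to 0.

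Between the gates Lgals1 changed sign, to -0.074 without other cells and -0.67 thinned in spleen, to -0.0086 with no filter, -0.052 without other cells and -0.55 thinned in kidney, and without 1 mouse it ran from -0.086 to 0.26 (spleen) and from -0.11 to 0.090 (kidney). Vim in spleen changed to -0.29 when thinned. Without 1 mouse Lgals3 in Lef1-negative kidney cells ran from -0.024 to 0.88, and Crip1 in the kidney difference from -0.18 to 0.51. The causes of these changes were not tested. Of the member results called, 262 alternative values kept their call and 61 lost it. Of those not called but called in some setting, 340 stayed uncalled, 91 gained a call and 13 changed sign. RLE size factors moved no count by over 1.5 times. The smallest sum, kidney KO2, holds 219 cells.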

Other observations

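The cells of the second day, 2399 barcodes that stand under several mice and both organs in the deposited matrices, could be given to no mouse or genotype. The tag key names KO and WT mice beyond those used above, so these cells may mix both genotypes. Lef1 status and genotype cannot be told apart in their values. In 1 copy of them (9608748 UMIs), 51.3% had a Lef1 UMI. In UMIs per 1000000, without TMM scaling, Anxa2 was at 186 in their Lef1-positive and 379 in their Lef1-negative cells, Lgals1 at 378 and 814, S100a10 at 768 and 1200.4, and Vim at 635 and 1280.5. Ezh2 was at 80.5 and 114 in the same order.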
